A study of Mus musculus with 2 samples.

Results

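Glycolysis splits glucose into pyruvate, and in cells that make lactate the pyruvate is reduced instead of being burnt in mitochondria. Slc2a1 (the glucose transporter GLUT1) brings glucose in, Hk2 (hexokinase) traps it by phosphorylation, and Pfkfb3 makes fructose-2,6-bisphosphate, the activator of the rate-limiting phosphofructokinase. Aldoa (aldolase), Gapdh (glyceraldehyde-3-phosphate dehydrogenase), Pgk1 (phosphoglycerate kinase) and Ldha (lactate dehydrogenase) are enzymes of the later steps. Pdk1 phosphorylates and switches off pyruvate dehydrogenase, and Bnip3 is a protein of the outer mitochondrial membrane that promotes the removal of mitochondria. Most of these genes are known targets of the hypoxia-inducible factor HIF, whose alpha subunit is hydroxylated when oxygen is present and is then destroyed by way of VHL. Egln3 encodes one of those hydroxylases (PHD3) and is itself a HIF target. Growth factors are also known to raise the transcription of glucose transport and hexokinase genes, and fibroblasts in serum are a classical setting for this.

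The 10 genes Slc2a1, Hk2, Pfkfb3, Aldoa, Gapdh, Pgk1, Ldha, Pdk1, Egln3 and Bnip3 were taken by name from all 28233 genes on the array, and were read by 22 of its 39429 probes. Gapdh had 7 probes, Bnip3 and Ldha had 3 each, Egln3 and Pfkfb3 had 2 each, and the other members had 1 each. Total RNA came from an immortalized line of mouse embryonic fibroblasts (MEF) of strain C57BL/6 x B6:129 Ola, in which both copies of Thoc5 are floxed and a tamoxifen-activated Cre (ERT2) sits at the Rosa26 locus. The control cells carry the same floxed alleles and Cre but had no tamoxifen, although their label reads wildtype. The THOC5 knockdown cells had tamoxifen for 2 days per the labels, whereas the methods give a day of tamoxifen followed by a day in growth medium. THOC5 is a subunit of the THO complex, which couples transcription to mRNA processing and export. In each condition serum-starved, unstimulated cells were labelled with Cy3 and cells given serum (FCS) for 1 h with Cy5, and both were hybridised to the same dual-color Agilent array. Each condition had 1 array, both lay on 1 slide, and the dyes were not exchanged on either. The values therefore carry no p-value and no replicate error, and THOC5 loss, tamoxifen, culture and slide position cannot be told apart.

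The Thoc5 probe read 4808 and 3047 in unstimulated and serum-stimulated control cells, and 546 and 455 in the THOC5 knockdown cells. After scaling between arrays this was 7.08-fold lower without serum and 5.38-fold lower with serum. All 10 fibroblast markers, such as Col1a1 and Vim, were well above background in every channel, with a summed processed signal of 430157 to 470551 in the control channels and of 347301 to 388809 in those of the knockdown. The summed signals of the epithelial, endothelial and blood markers lay between 28.5 and 122.5 in all channels, and Cdh1 and Tek were below the detection call in all of them. Of the 3 neural markers, Rbfox3 was below that call throughout, whereas their sum was 3618 to 5662. The part of these marker signals in the values below was not tested. Between 62.1% and 64.4% of the 43020 spots were well above background in each channel and no spot was saturated. Among probes printed as 10 spots, the median SD of the log2 serum ratio between spots was 0.029 for the control and 0.031 for the knockdown, while the scanner software gave each member an error of 0.20 to 0.22 for its log2 ratio. Log2 ratios of the 10 spike-in RNAs were on average 0.24 higher on the THOC5 knockdown array.

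The promoter letters of the members are shown first, since HIF binds a core of A or G followed by CGTG, and serum response factor binds the CArG box. RefSeq entries of GRCm38.p6 gave 15 start sites for the 10 members, and all 10 members were matched. In the 250 bases before those starts, ACGTG was found on either strand in 8 members, all but Gapdh and Pdk1, and GCGTG in 6 members. One of the pair occurred in each of the 10 members, whereas it occurred in 41.5% of all 27025 genes with such an entry (ACGTG in 18.5% and GCGTG in 30.9%). The E-box CACGTG, which contains ACGTG on both strands and so is counted there too, was found in Pfkfb3, Ldha and Bnip3, against 6.86% of all genes. No CArG box was found in any member, against 1.62% of all genes. These matches describe the letters only, and several members are well-known HIF targets, so their share is no independent observation. The stretches below are those of the members with the largest serum ratios (Slc2a1, Hk2, Pfkfb3), of those with the largest differences between the arrays besides Hk2 (Egln3, Bnip3), and of Ldha, which has the most ACGTG matches and small serum ratios on both arrays. Each is given 5′ to 3′ in the direction of the gene and ends at the base before the start. Capitals mark ACGTG or GCGTG on either strand (CACGT or CACGC where the match is on the opposite strand). The stretch of Slc2a1 is chr4:119108495-119108744 (plus strand), of Hk2 chr6:82774455-82774704 (minus strand), of Pfkfb3 chr2:11553930-11554179 (minus strand, the first of its 2 starts), of Ldha chr7:46845554-46845803 (plus strand, the first of its 2 starts), of Egln3 chr12:54203875-54204124 (minus strand) and of Bnip3 chr7:138909507-138909756 (minus strand).
Slc2a1: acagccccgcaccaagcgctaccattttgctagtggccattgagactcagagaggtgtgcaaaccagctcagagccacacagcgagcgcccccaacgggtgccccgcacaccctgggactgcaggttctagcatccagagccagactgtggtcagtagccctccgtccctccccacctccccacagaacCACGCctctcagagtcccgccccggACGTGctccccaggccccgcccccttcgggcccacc
Hk2: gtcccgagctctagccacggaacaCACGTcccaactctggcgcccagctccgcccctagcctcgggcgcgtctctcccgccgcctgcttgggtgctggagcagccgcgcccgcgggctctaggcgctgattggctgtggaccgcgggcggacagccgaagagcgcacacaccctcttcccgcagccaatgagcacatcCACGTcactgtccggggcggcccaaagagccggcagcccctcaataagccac
Pfkfb3: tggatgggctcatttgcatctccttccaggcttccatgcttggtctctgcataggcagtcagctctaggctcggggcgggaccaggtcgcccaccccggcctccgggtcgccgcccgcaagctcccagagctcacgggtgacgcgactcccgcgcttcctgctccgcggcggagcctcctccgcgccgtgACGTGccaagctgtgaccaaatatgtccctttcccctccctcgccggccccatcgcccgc
Ldha: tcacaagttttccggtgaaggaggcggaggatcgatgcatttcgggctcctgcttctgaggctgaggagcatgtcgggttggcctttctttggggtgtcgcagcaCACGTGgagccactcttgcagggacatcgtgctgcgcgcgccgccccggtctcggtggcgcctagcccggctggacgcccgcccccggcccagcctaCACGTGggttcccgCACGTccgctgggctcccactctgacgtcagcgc
Egln3: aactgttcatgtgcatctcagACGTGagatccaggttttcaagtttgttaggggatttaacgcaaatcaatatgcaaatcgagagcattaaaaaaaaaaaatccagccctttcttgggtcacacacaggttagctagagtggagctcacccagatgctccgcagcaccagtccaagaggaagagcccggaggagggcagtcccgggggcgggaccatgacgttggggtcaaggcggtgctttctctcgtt
Bnip3: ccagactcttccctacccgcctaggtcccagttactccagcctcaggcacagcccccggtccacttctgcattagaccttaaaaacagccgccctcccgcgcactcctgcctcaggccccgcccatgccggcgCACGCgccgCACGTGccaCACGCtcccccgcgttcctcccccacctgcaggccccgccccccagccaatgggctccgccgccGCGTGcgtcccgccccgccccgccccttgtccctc
In Slc2a1 the ACGTG begins 36 bases before the start and the reverse GCGTG 61 bases before it. Hk2 has its reverse matches at 226 and 52 bases, and Pfkfb3 its match at 60 bases. The Ldha stretch holds 5 overlapping or separate ACGTG matches, of which 4 lie in 2 E-boxes at 145 and 48 bases. That of Egln3 holds a lone match, 229 bases before the start. In Bnip3 an E-box at 108 bases is flanked by reverse GCGTG matches at 117 and 99 bases, and a further GCGTG lies at 35 bases.

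The first question was how the members responded to 1 h of serum in the presence of THOC5. Among the 10 members, Slc2a1 and Hk2 were at least 1.5-fold higher with serum in control cells and 0 were at least 1.5-fold lower. Over all 17747 genes well above background in both channels, 6.25% were higher and 5.41% were lower by that rule. The members had a median log2 ratio of 0.02 and a range from -0.32 to 1.00, and the median of all genes was -0.02. The 3 highest ratios on this array were those of Slc2a1, Hk2 and Pfkfb3, the genes of glucose uptake, of its first phosphorylation and of the control of phosphofructokinase. In bulk RNA a change in the share of cells that express a gene and a change in RNA per cell cannot be told apart.

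Slc2a1, whose probe lies on mm9 chromosome 4 (118809864 to 118809923), had processed signals of 12637 in unstimulated and 25283 in serum-stimulated control cells, and of 13096 and 21838 in THOC5 knockdown cells. Its level was thus higher with serum on both arrays, 2.00-fold in control cells and 1.67-fold in the knockdown cells. The log2 ratios of 1.00 and 0.74 lay above those of 97.6% and 98.3% of all genes measured on the respective array. Slc2a1 was above 1.5-fold on both arrays in all 8 alternative settings. Its value changed only with normexp and loess, without dye normalization and with one spread of log ratios. In control and knockdown cells these gave log2 ratios of 1.03 and 0.74, of 1.20 and 0.91, and of 0.84 and 0.87. Hk2 (chromosome 6, 82675056 to 82675115) gave 5161 and 8469 in control cells, and 6996 and 9236 in the knockdown cells. It was 1.64-fold higher with serum in control cells and 1.32-fold higher in the knockdown cells, and its unstimulated control signal was the lowest of the 4. Pfkfb3 was read at 2285 and 3415 in control cells and at 2116 and 2569 in the knockdown cells by its bright probe (chromosome 2, 11393453 to 11393512). With a serum ratio of 1.49-fold it lay just under the threshold in control cells, and in the knockdown cells the ratio was 1.21-fold. The second Pfkfb3 probe had signals of at most 16.4 and was well above background only in unstimulated knockdown cells, so it gives no ratio.

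**Figure D1:**
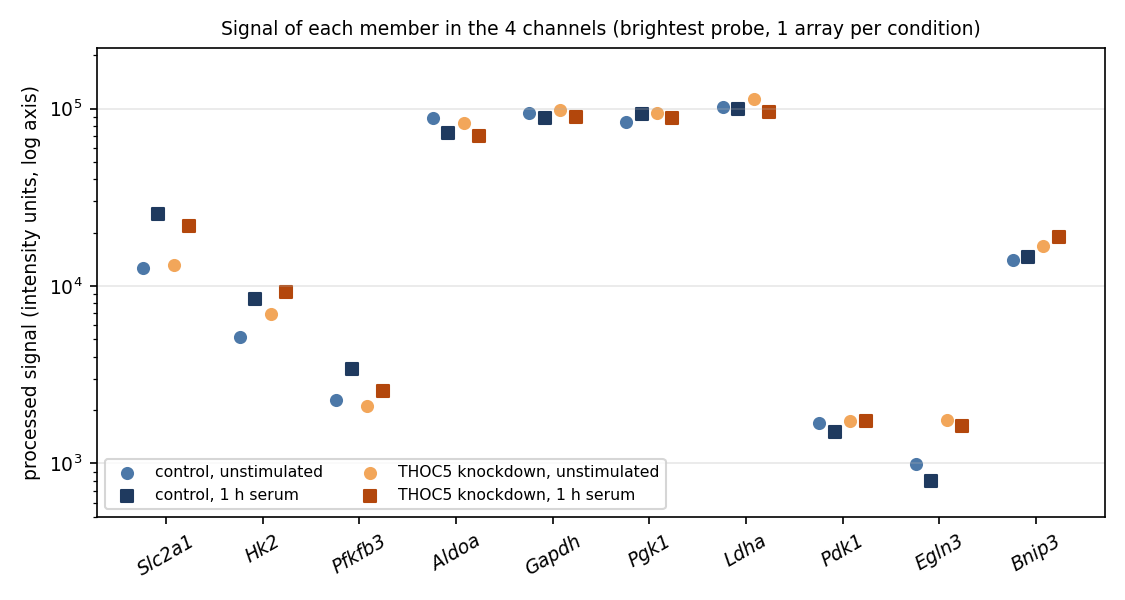
Processed signal (intensity, log axis) of each member's brightest probe in the 4 channels, circles for unstimulated cells and squares for 1 h of serum, blue for control and orange for THOC5 knockdown cells. Slc2a1, Hk2 and Pfkfb3 have the square above the circle on both arrays, and both orange points of Egln3 (1755 and 1619) lie above both blue points (998 and 798).

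The enzymes of the later steps were among the brightest spots and had small ratios. Aldoa (chromosome 7, 133938816 to 133938875) read 88313 and 72749 in control cells and 82600 and 69657 in the knockdown cells, so that the serum-stimulated signal was 1.21-fold and 1.19-fold lower. Gapdh, often used as a reference transcript, read 94341 and 87891 in control cells and 97737 and 89641 in the knockdown cells by its brightest probe (chromosome 6, 125111869 to 125111928). Its 7 probes had log2 serum ratios of -0.26 to -0.04 in control cells (mean -0.14 ± 0.08, SD over probes) and of -0.42 to -0.12 in the knockdown cells (mean -0.26 ± 0.11). All 7 probes thus had a lower processed signal with serum on both arrays. These directions rest on the dye normalization: without it, the log2 ratios of the brightest Gapdh probe were 0.33 and 0.37, and those of Aldoa 0.14 and 0.22, in control and knockdown cells. One of these probes is placed on chromosome 8 (94212520 to 94212579) and another on a stretch of 19 bases (chromosome 6, 125111848 to 125111866), so their target is uncertain. For Pgk1 the signals were 83561 and 93016 in control cells and 94960 and 88942 in the knockdown cells. The ratio was 1.11-fold above 1 in control cells and 1.07-fold below 1 in the knockdown cells. The Pgk1 probe is placed on chromosome 3 (57906830 to 57906894), although the gene lies on the X chromosome, so which copy it reads is uncertain.

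Ldha was read by 3 probes on chromosome 7. The brightest (54110937 to 54110996) gave 101548 and 99794 in control cells and 112704 and 96171 in the knockdown cells. On the log2 scale serum over unstimulated was -0.03 in control and -0.23 in knockdown cells. The dimmer probes had ratios of 0.12 and 0.17 in control cells and of -0.40 and -0.42 in the knockdown cells. The 3 probes therefore differed in sign in control cells and were all below 0 in the knockdown cells, where the brightest was at 0.34 without dye normalization. Gapdh, Pgk1, Ldha and Aldoa belong to gene families with processed copies in the genome, so the share of such copies in their signals is uncertain.

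Among the genes that act on mitochondria and oxygen sensing, serum ratios were small as well. Pdk1 (chromosome 2, 71739688 to 71739747) read 1698 and 1512 in control cells and 1729 and 1725 in the knockdown cells, with log2 ratios of -0.17 and -0.003. Egln3 (chromosome 12, 55280953 to 55281012) read 998 and 798 in control cells and 1755 and 1619 in the knockdown cells. Both its probes were lower with serum on both arrays, with log2 ratios of -0.32 and -0.23 in control cells and of -0.12 and -0.19 in the knockdown cells. Bnip3 (chromosome 7, 146082640 to 146082699) read 13938 and 14590 in control cells and 16773 and 18835 in the knockdown cells. Its 3 probes disagreed in sign, with log2 serum ratios from -0.33 to 0.07 in control cells and from -0.07 to 0.17 in the knockdown cells.

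The same question was asked upon depletion of THOC5. On the THOC5 knockdown array 1 member, Slc2a1, was at least 1.5-fold higher with serum and 0 were lower, where 3.03% of all 17818 genes were higher and 1.25% were lower. The median log2 ratio of the members was -0.05, with a range from -0.25 to 0.74, and that of all genes was -0.01. On each array 5 of the 10 members had a log2 ratio larger than the scanner's own error. Slc2a1, Hk2, Pfkfb3 and Aldoa did so on both arrays, Egln3 on the control array and Ldha on the THOC5 knockdown array. The share of all genes past that error was not computed. The median distance of all genes from their own median was 0.19 (log2) in control and 0.14 in knockdown cells. The count of 5 is therefore not read as a trait of the members.

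**Figure D2:**
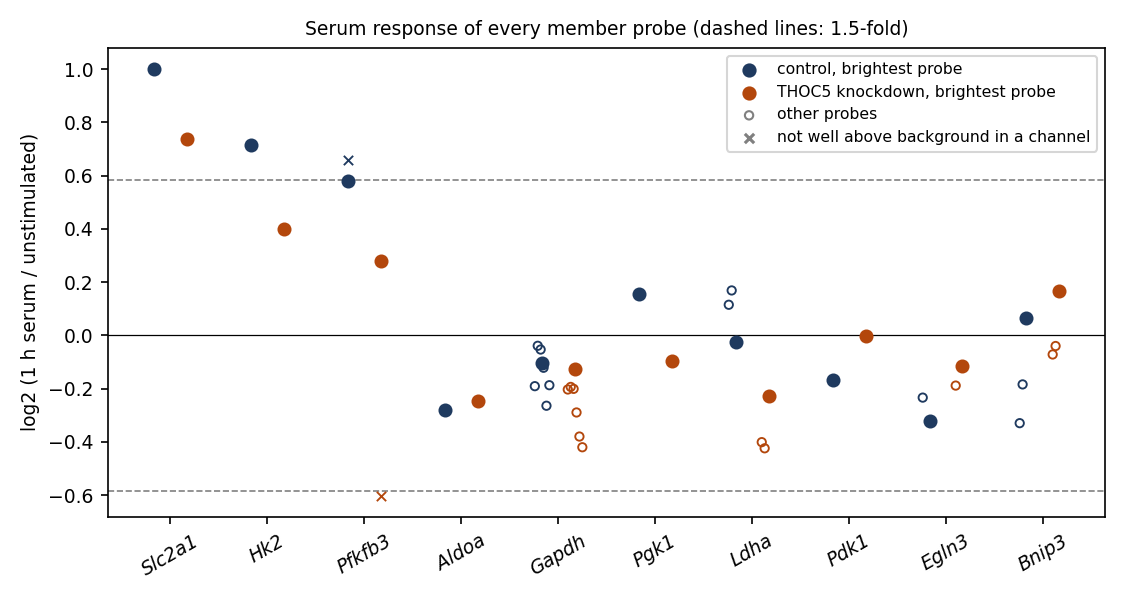
Log2 ratio of 1 h serum over unstimulated cells for all 22 probes, blue for control and orange for THOC5 knockdown cells, filled circles for the brightest probe, open circles for other probes and crosses for the Pfkfb3 probe that is not well above background in every channel. Slc2a1 lies above the dashed 1.5-fold line on both arrays (1.00 and 0.74), Hk2 only on the control array (0.71 and 0.40), and the 7 Gapdh probes all lie below 0.

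The serum ratio in THOC5 knockdown cells minus that in control cells was -0.26 (log2) for Slc2a1, -0.31 for Hk2 and -0.30 for Pfkfb3. When the arrays were given one spread of log ratios, these differences were 0.03, -0.13 and -0.16, so that the sign of Slc2a1 turned. Those of Pgk1 and Ldha were -0.25 and -0.20, and the dimmer Ldha probes gave -0.52 and -0.59. Differences above 0 were found for Egln3 (0.21), Pdk1 (0.16), Bnip3 (0.10) and Aldoa (0.03), while Gapdh was at -0.02 (Aldoa was at -0.06 with one spread of log ratios, and Gapdh at 0.05 with normexp and loess). The spike-in RNAs differed between the arrays by 0.15 to 0.31 in the same subtraction, above 0 and thus opposite in sign to Slc2a1, Hk2, Pfkfb3, Pgk1 and Ldha, and the part of this offset in the members' values was not tested. The errors given by the scanner software combine to 0.29 to 0.31 for such a difference, and by the brightest probes 2 of the 10 members, Hk2 and Pfkfb3, were past it by a small margin. With log ratios scaled to one spread neither was past it, and without dye normalization Hk2 was not (-0.28). The median was -0.11 over the members (-0.20 to -0.043 over the alternatives) and 0.01 over 17201 genes measured on both arrays. The 5th and 95th percentiles of those genes were -0.50 and 0.53. The share of them past the combined scanner error was not computed, so the 2 of 10 members are not read against a background. For the 1070 genes at least 1.5-fold higher with serum in control cells, a group that includes Slc2a1 and Hk2, the median difference was -0.55 and 95.2% were below 0. Slc2a1 and Hk2 thus lay closer to 0 than that median, which is over genes selected for a high ratio on the control array.

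The next comparison set the THOC5 knockdown array against the control array in unstimulated cells, after the mean signals of the arrays had been given the same distribution. Egln3 and Hk2 were at least 1.5-fold higher in the knockdown cells and 0 of the 10 members were lower, where 6.96% of 19044 genes were higher and 7.51% were lower. Egln3 was 2.16-fold higher (log2 1.11), above 97.4% of all genes measured. Its second probe gave 1.31. Hk2 was 1.70-fold higher (log2 0.76, above 95.3% of genes). Bnip3 followed at 1.47-fold, just under the threshold, and its 3 probes ran from 0.46 to 0.85 on the log2 scale. The other members had log2 values of 0.35 (Slc2a1 and Pdk1), 0.26 (Pgk1), 0.21 (Pfkfb3 and Ldha), 0.11 (Gapdh) and 0.02 (Aldoa).

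All 10 members were thus above 0, with a median of 0.30 against -0.004 over all genes, but 1 was below 0 with quantile scaling of the Cy3 channel alone (Aldoa), 2 without scaling (Aldoa and Pfkfb3) and 5 when signals were scaled to Gapdh. The last 2 settings moved all genes, to medians of -0.26 and -0.38, and the members' medians were 0.10 and -0.02. Gapdh is itself a member and among those 5. Scaling to the mean of its probes puts its own value near 0 by construction (-0.07). Among the 7340 genes at least as bright as the dimmest member, the median was -0.001, 49.9% were above 0, 1.85% were at least 1.5-fold higher and 1.54% at least 1.5-fold lower. Gapdh and Ldha show how far probes of one gene can differ in this comparison. The 7 Gapdh probes ran from 0.11 to 0.48 (mean 0.37 ± 0.14, SD over probes), with the brightest probe the lowest. The brightest Ldha probe gave 0.21, and the dimmer ones 0.58 and 0.61.

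In serum-stimulated cells, Egln3 and Bnip3 were at least 1.5-fold higher on the THOC5 knockdown array and 0 members were lower, where 8.44% of 18665 genes were higher and 7.21% were lower. Egln3 was 2.49-fold higher (log2 1.31, above 97.8% of genes), and its second probe gave 1.36. Bnip3 was 1.58-fold higher (log2 0.66), with 0.72 and 0.99 for the other probes. Pdk1 and Hk2 came next at 1.42-fold and 1.36-fold. By their brightest probes, the remaining 6 members lay from -0.09 for Pfkfb3 to 0.09 for Slc2a1, with Gapdh at 0.09, Aldoa at 0.05, Pgk1 at 0.01 and Ldha at 0.002. The 7 Gapdh probes ran from 0.09 to 0.35 (mean 0.24 ± 0.10, SD over probes), again with the brightest probe the lowest. With 9 of 10 members above 0 and Pfkfb3 below it, the median was 0.09 against 0.003 over all genes. Without scaling or with scaling to Gapdh, 5 of the 10 were below 0 and the members' median was -0.01, where the medians of all genes were -0.25 and -0.26. Over the 7340 genes at least as bright as the dimmest member the median was 0.005, 1.98% were at least 1.5-fold higher and 2.55% at least 1.5-fold lower. Both comparisons between the arrays use the same 2 hybridisations as the serum ratios, so these values are not independent of them.

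**Figure D3:**
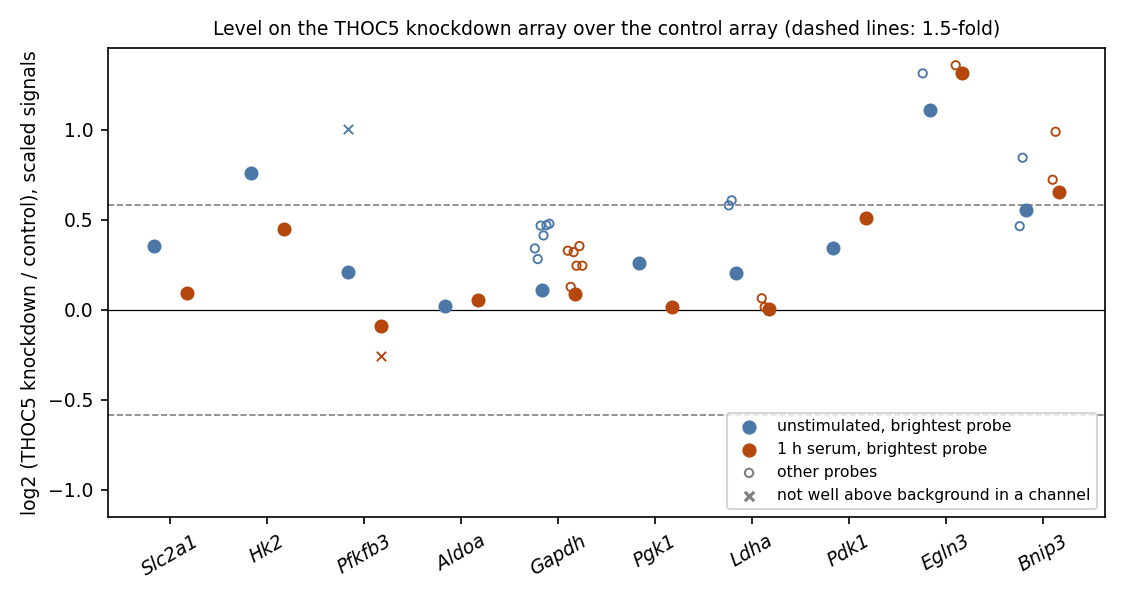
Log2 level on the THOC5 knockdown array over the control array after Aquantile scaling, for all 22 probes, blue for unstimulated and orange for serum-stimulated cells, with symbols as in the plot of serum ratios. Both probes of Egln3 lie between 1.11 and 1.36, all 3 probes of Bnip3 lie between 0.46 and 0.99, and Hk2 is at 0.76 and 0.45.

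The choice of setting moved the members unequally. A floor of 50, outlier spots kept and no background filter returned each member's main value, as did the series table for serum ratios. The median over probes did so for members with 1 probe, among them Slc2a1 and Hk2. Counts over the alternatives therefore include settings that left the value as it was. Egln3 was past 1.5-fold in all 9 alternatives of both comparisons between the arrays, at log2 values of 0.69 to 1.21 without serum and 1.02 to 1.34 with serum. Hk2 in unstimulated cells was past it in 7 of 9 (0.32 to 0.77), and Bnip3 in serum-stimulated cells in 7 of 9 (0.37 to 0.72). The exceptions for both were signals without scaling and scaling to Gapdh. Among the serum ratios, Slc2a1 ran from 0.84 to 1.20 in control cells and from 0.74 to 0.91 in the knockdown cells. Hk2 in control cells remained past 1.5-fold in all 8 alternatives (0.60 to 0.73), whereas Pfkfb3 was past it in 3 of 8, one of which takes the median with the probe that is not well above background on the control array. Bnip3 ran from -0.33 to 0.25 in control cells. There the Ldha ratio ran from -0.03 to 0.50 and that of Pgk1 from 0.13 to 0.52, the highest values of both being those without dye normalization.

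**Figure D4:**
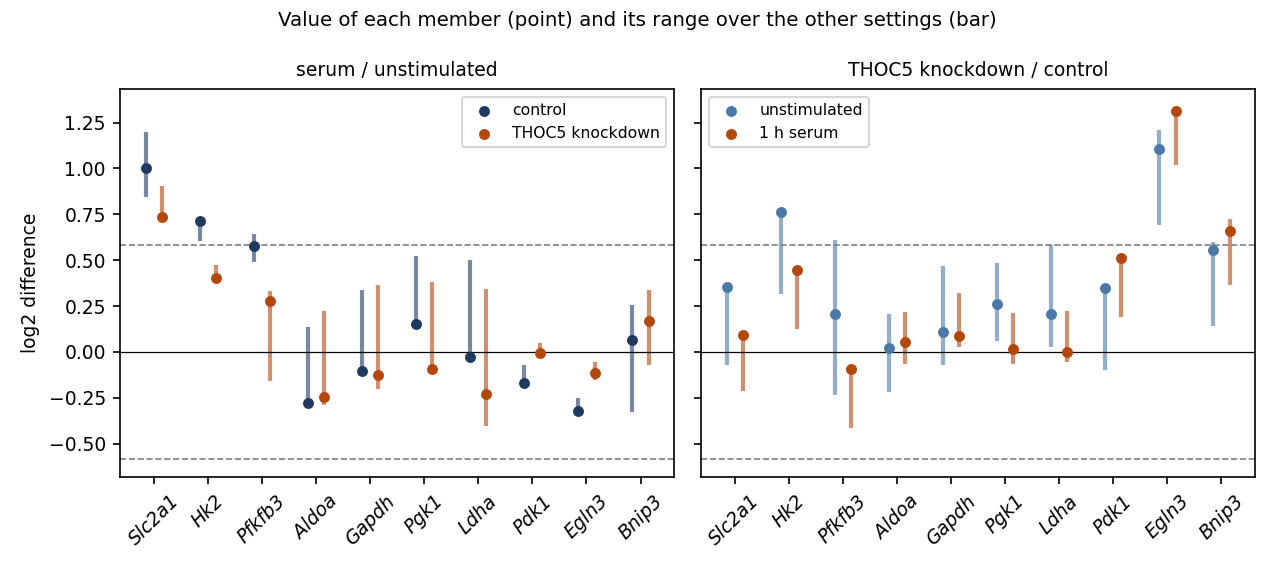
Log2 value of each member as reported (point) and the span over the alternative settings (bar), for serum over unstimulated cells on the left and THOC5 knockdown over control on the right; dashed lines mark 1.5-fold. The bars of Egln3 on the right stay above the line, and those of Aldoa, Gapdh and Ldha on the left cross 0.

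The members were then set among 90 genes of their pathways, whose counts are to be read against the shares of all genes. Of 7 transporters of glucose and lactate, 5 were measured for serum in control cells, and Slc2a1 alone was past 1.5-fold (6.25% of all genes were higher and 5.41% lower). Between the arrays, all 7 were measured and 1 was higher without serum (Slc2a3, a second glucose transporter) and 2 with serum (Slc2a3 and the monocarboxylate transporter Slc16a7), against 6.96% and 8.44% of all genes. These counts use measured ratios, and the probes were dim. Slc2a3 read 7.04 and 10.68 in control cells, not well above background, and 18.3 and 18.2 in the knockdown cells, so that it was at least 1.82-fold higher without serum, while its bound with serum, 1.45-fold, is under the threshold. Slc16a7 read 15.4, 10.8, 16.2 and 23.9 in the same order, and was at least 1.90-fold higher with serum against a control signal that was not well above background.

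Glycolytic enzymes numbered 23, of which 21 were measured in each comparison. Hk2 alone was past 1.5-fold with serum in control cells, and 0 were past it in the knockdown cells, against 6.25% and 3.03% of all genes that were higher. The list's median log2 serum ratio was -0.08 with control and -0.14 with knockdown cells. Between the arrays, Hk2 was higher and Pklr (pyruvate kinase of liver and red cells) lower in unstimulated cells, and 0 of 21 were past 1.5-fold in serum-stimulated cells. The shares of all genes were 6.96% higher and 7.51% lower without serum, and 8.44% and 7.21% with serum, so 1 of 21 is near the background. Pklr read 37.4, 34.9, 21.3 and 24.3, a dim probe whose level was at a log2 value of -0.67 without serum and -0.37 with serum. The median of the list was 0.19 without serum and 0.09 with serum.

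Regulators of glycolytic flux were 15 genes that include the PFKFB enzymes and the kinases and phosphatases of pyruvate dehydrogenase. With serum, 0 were past 1.5-fold on either array, among 13 measured in control and 12 in knockdown cells. Over all genes 6.25% were higher and 5.41% lower in control cells, and 3.03% and 1.25% in the knockdown cells. Between the arrays, Fbp1 (fructose bisphosphatase) was the one higher in unstimulated cells of 14 measured, and Pdk4 the one lower in serum-stimulated cells of 13 measured, near the 6.96% and 7.21% of all genes. Both rest on dim signals. Fbp1 read 4.29 in control cells, not well above background, and 14.2 in knockdown cells without serum, and its bound of 1.41-fold is under the threshold, so that this call is not secured. Pdk4 read 22.8 and 9.37 with serum, at least 1.71-fold lower.

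The HIF system comprised 10 genes, with Egln3 among them. Vhl was the one gene past 1.5-fold with serum in control cells of 9 measured, at 4984 without and 3044 with serum (log2 -0.71), and at 3613 and 3382 in the knockdown cells (-0.10). Of all genes, 5.41% were lower in control cells. Over the list, the median log2 serum ratio was -0.28 for control and -0.10 for knockdown cells. Egln3 was the one gene past 1.5-fold between the arrays, with and without serum (8.44% and 6.96% of all genes were higher), and the 9 other genes lay between -0.54 and 0.49. Its paralogues, Egln1 and Egln2, had log2 values of 0.30 and 0.02 without serum and of 0.32 and 0.16 with serum.

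Other hypoxia-response genes, 35 in all, held the largest serum ratios. In control cells 6 of 32 measured were at least 1.5-fold higher and 0 lower, and in the knockdown cells 4 of 33 were higher and 0 lower. Over all genes these shares were 6.25% and 5.41% in control cells and 3.03% and 1.25% in the knockdown cells. The counts leave out Ppp1r3c in control cells, which read 41.5 without serum and 3.87, not well above background, with serum, and was thus at least 2.96-fold lower. The transcriptional repressor Bhlhe40 read 1218 without and 7880 with serum in control cells, and 1413 and 3027 in the knockdown cells (6.47-fold and 2.14-fold). Vegfa, the endothelial growth factor, read 4467 and 18669 in control cells and 3895 and 7180 in the knockdown cells (4.18-fold and 1.84-fold). Hmox1 (heme oxygenase) read 6370 and 20749 in control cells and 15297 and 27874 in the knockdown cells (3.26-fold and 1.82-fold). Cited2, which competes with HIF for a coactivator, was 2.10-fold higher in control cells and 1.47-fold higher in the knockdown cells. Ero1l, an oxidase of the endoplasmic reticulum, was 1.11-fold higher in control cells and 1.57-fold higher in the knockdown cells.

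Between the arrays, 5 of 33 genes of that list were higher in unstimulated knockdown cells and 0 were lower, against 6.96% and 7.51% of all genes. They were Hmox1 (log2 1.57), Ankrd37 (0.90), the nuclear receptor Rora (0.84), Ero1l (0.76) and Cited2 (0.67). With serum 8 were higher, Bnip3 among them, and 3 were lower, against 8.44% and 7.21% of all genes. Ankrd37, Ero1l and Rora had log2 values of 1.26, 1.26 and 1.34, and Hmox1 of 0.73. Ppp1r3c, a subunit that targets a phosphatase to glycogen, was at least 2.61-fold higher, with signals of 3.87 in control cells, not well above background, and 32.7 in the knockdown cells. Vegfa and Bhlhe40 were lower (both -1.06), as was Loxl2 (-0.87), which was named after its value was seen. The second probe of Vegfa gave -0.80 with serum, yet 1.28 without serum, where the brighter probe gave 0.12. The median of the list was 0.13 without serum and 0.28 with serum. These counts are descriptions of 1 array per condition.

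**Figure D5:**
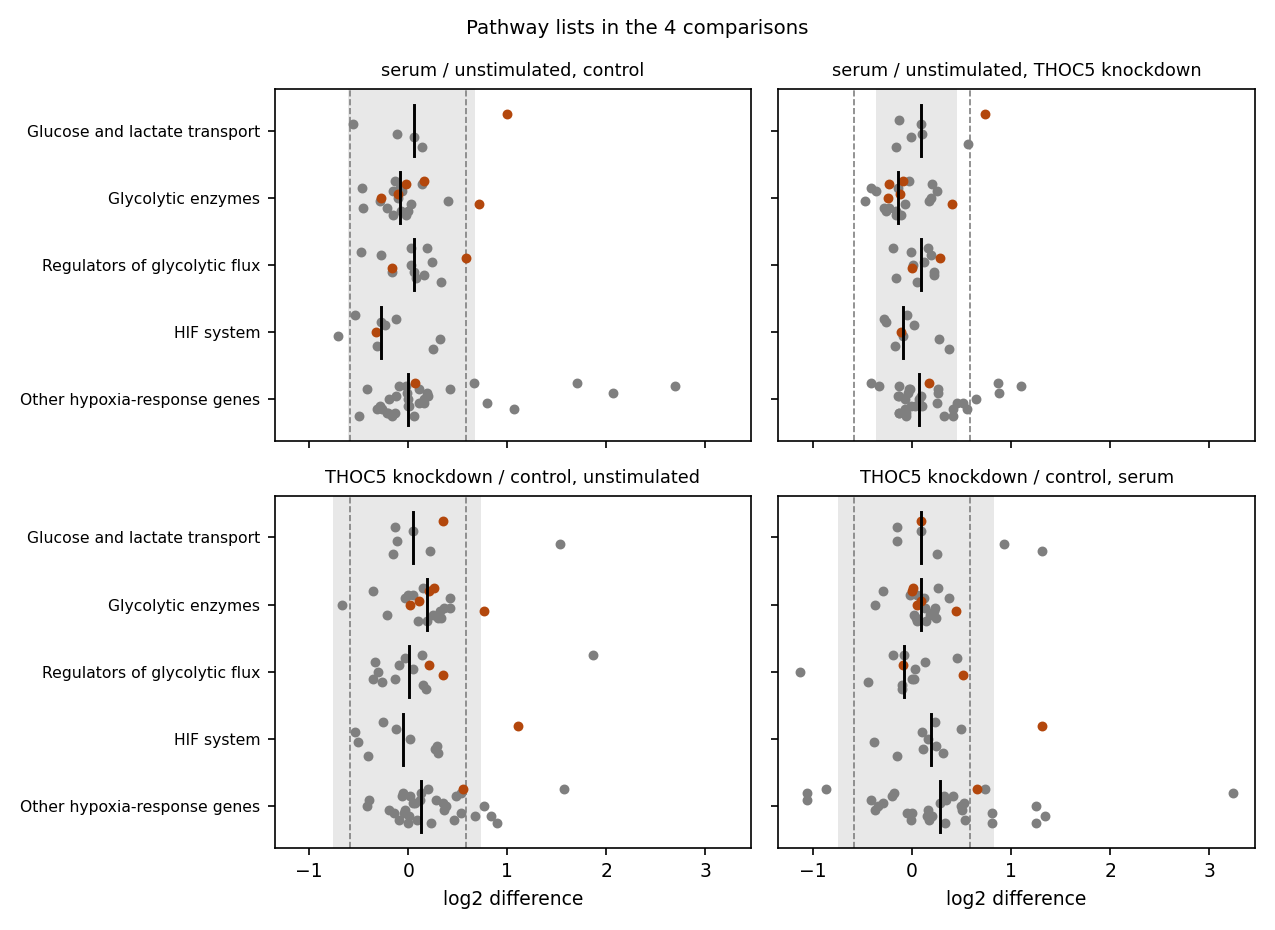
Log2 difference of each measured gene of the 5 pathway lists in the 4 comparisons, members in orange and other genes in grey, with the list's median as a black line, the 5th to 95th percentile of all genes as a grey band and 1.5-fold as dashed lines. Of the glycolytic enzymes, Hk2 lies past the right dashed line in the panels of serum in control cells and of unstimulated cells (0.71 and 0.76) and Pklr past the left one in unstimulated cells (-0.67), and Egln3 is the member farthest to the right in both lower panels (1.11 and 1.31).

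Among the genes whose 4 scaled and centred log2 signals lay nearest to those of Slc2a1, of 17201 genes well above background in all channels, were Fbxo30, Gm2262, D130095D21Rik and Gm7228, at Euclidean distances of 0.06 to 0.10. Fbxo30 had log2 serum ratios of 1.00 in control cells and 0.66 in the knockdown cells, and levels between the arrays of 0.38 without serum and 0.04 with serum. For Gm7228 the 4 values were 0.91, 0.72, 0.24 and 0.05. The likeness is over 4 signals of 2 arrays only.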

How the data were processed

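The authors deposited the text output of Agilent Feature Extraction 10.7.3.1 for 2 dual-color arrays. Probes are placed on mm9. The deposited processed signal is an intensity after background subtraction and linear and LOWESS dye normalization within the array, and the deposited log10 ratio is that of Cy5 over Cy3. The authors' series table holds another quantity, the size of that ratio without sign (0 negative values), and served only as an alternative. Columns mapped to no sample numbered 0.

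The serum ratio was Cy5 over Cy3 processed signal. Levels between arrays followed Aquantile scaling (limma 3.58.1, R 4.3.3). The other software was Python 3.11.15, with pandas 2.3.3 and numpy 2.4.6 for tables and matplotlib 3.10.9 for figures. Outlier spots (239 and 234) were omitted, and replicate spots averaged as log2 values. The probe with the highest mean signal stood for its gene. Ratios required both channels well above background, levels at least 1 array, and bounds used the lowest signal so called. The procedure was tested on simulated data.

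Members, lists and thresholds were chosen with earlier results of these data known. Named genes were the members, Thoc5, list genes past 1.5-fold (at most 8 per list) and the 5 nearest to Slc2a1, of which 1 is not reported here. Egln1 and Egln2 were added as paralogues of Egln3. Alternatives covered background correction, dye normalization, scaling, probe rule, filters, a floor of 50 and thresholds of 1.3-fold and 2-fold.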

Additional observations from a re-analysis of the deposited data

Results flagged for a closer look

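By the brightest probe of each gene, Pgk1 was the one member whose log2 serum ratio had opposite signs on the arrays, each larger than 3 times the spread between spots (a limit of 0.092). It was at 0.15 with control cells and at -0.09 after THOC5 knockdown, and the difference was not tested. Both values are smaller than the error that the scanner software gives for them (0.20). The dimmer Ldha probes also had opposite signs past that limit, at 0.12 and 0.17 in control cells against -0.40 and -0.42 in knockdown cells. Without dye normalization both Pgk1 ratios were above 0, at 0.52 and 0.38.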

How the results depend on the processing

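No paired analysis was possible because each condition has 1 array and the labels carry no replicate numbers. For the same reason no array could be left out. Over the alternatives, 215 values of single members moved by less than the spread between spots and 125 by more. The 215 include settings that returned every member's main value: the floor, outlier spots kept, no background filter and, for serum ratios, the series table. The tally is therefore no measure of stability. No value past 1.5-fold in the main setting changed sign. Of the counts of members and the median difference, 77 values stayed within 1.5 times the count, or within the spread between spots. A further 14 moved by more. The 77 include counts of 0 that stayed at 0 and settings that returned the main value. At 2-fold, 1 member was higher with serum in control cells and 0 in knockdown cells, and 1 was higher in knockdown over control cells both without and with serum, where 420 of 17747, 154 of 17818, 590 of 19044 and 669 of 18665 genes were higher. At 1.3-fold, 2 members were higher with serum in knockdown cells and 4 in serum-stimulated knockdown over control cells, against 1253 of 17818 and 2732 of 18665 genes. Without scaling between arrays, and with scaling to Gapdh (chosen after seeing the data), 1 member was higher in each of the comparisons between the arrays. Of all genes, 857 and 690 of 19044 were then higher without serum, and 1019 and 1016 of 18665 with serum. The median difference of the serum ratios, -0.11, was -0.043 with normexp and loess, -0.055 without dye normalization, -0.059 with log ratios scaled to one spread and -0.20 with the median over probes, which for Pfkfb3 includes a probe not well above background in 3 channels.

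Scaling also moved all genes. The median of all genes shifted to -0.26 (unstimulated) and -0.25 (serum) without scaling, and to -0.38 and -0.26 with scaling to Gapdh, where 690 genes were higher and 4657 lower without serum. Unscaled signals gave 857 higher and 2913 lower, and the 75th percentile 1635 higher and 1157 lower, against 1326 and 1431. With normexp and loess, 328 genes were higher and 60 lower with serum in knockdown cells, against 539 and 222. Precision is limited by 1 array per condition and, for dim probes, by signal over background.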
